A study of Homo sapiens with 6 samples.

Results

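The genes described here are published targets of miR-21-5p, the sister strand of miR-21-3p, together with VMP1, the gene that holds the microRNA. They were chosen by name, 9 in all, from a table of 22152 genes, and 8 of them had values and were tested. RECK, a membrane-anchored inhibitor of matrix metalloproteinases, was not analysed here. By their labels the libraries were poly(A) RNA from HaCaT, a keratinocyte line of human skin that became immortal spontaneously. A group of 3 samples received a negative control (NC) mimic at 1 nM and the other group of 3 received a miR-21-3p mimic at 1 nM, and RNA was taken at 48 h. The comparison asked whether genes known as targets of the 5p strand differed when the 3p strand was supplied.

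A microRNA hairpin yields a 5p and a 3p strand, and either may be loaded into an Argonaute protein. The loaded strand pairs with messenger RNAs mainly through its seed, the short stretch near its 5′ end, so the strands of one hairpin recognise different sites. In skin, miR-21-5p is known for its part in keratinocyte growth and wound healing, and its targets include brakes on growth factor signalling, translation and the cell cycle.

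The mature miR-21-5p strand is shown because its seed defines the sites searched for in the members. It came from RefSeq (GRCh38.p14, chr17:59841273-59841294, plus strand), and the capitals mark bases 2 to 8.
hsa-miR-21-5p: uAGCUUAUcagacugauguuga

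Letters complementary to these bases, ATAAGCT on the transcript strand, were looked for in the longest annotated 3′ UTR of each gene (GENCODE v29, GRCh38). The 8-base form, ATAAGCTA, contains the 7-base form and adds an A. Of 8 members tested, 4 held the 7-base match and 3 of these held the 8-base match. The matches in PDCD4 (chr10:110898319-110898348, plus strand), SPRY1 (chr4:123402955-123402984, plus strand), SPRY2 (chr13:80336504-80336533, minus strand) and RHOB (chr2:20449371-20449400, plus strand) are given with their flanks, with the match in capitals.
PDCD4: ggaatattctaATAAGCTAccttttgtaag
SPRY1: taattgcttaaATAAGCTAtgtattaaatc
SPRY2: ccatgtattgcATAAGCTAaagcaacacag
RHOB: ataaaagttctATAAGCTgtgtatacagtt

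Among 11559 genes tested that had a 3′ UTR, 1149 (9.94%) held the 7-base match and 330 (2.85%) held the 8-base match. BTG2 held a match to bases 2 to 7 followed by A, TAAGCTA, outside any 8-base match, as did 681 genes (5.89%). MARCKS, MSH3 and VMP1 held none of these letters in UTRs of 2892, 598 and 1181 bases. The matches are a description of sequence, and the members were chosen as known targets.

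The libraries held about 24400000 to 28000000 reads, estimated from the deposited values, whose low values were whole multiples of 1 read and whose higher values are known only to 3 significant digits. Values are gene counts divided by a size factor for each sample, called normalized counts here, and 1 read was worth 0.898 to 1.04 of them. The squared difference between libraries, averaged over genes and divided by what read sampling alone gives, was 1.64 to 2.55 for pairs within a group, so no library repeated another. NC mimic 2 stood as close to the miR-21-3p mimic libraries (2.08, 2.09 and 2.48) as to its own group (2.55 to NC mimic 1 and 1.83 to NC mimic 3). NC mimic 1 stood at 3.51 to 5.18 from the miR-21-3p mimic libraries and NC mimic 3 at 2.54 to 4.05. The member results are therefore given with and without NC mimic 2.

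The keratinocyte label was checked against 8 markers, of which 7 were analysed and all were well above 0. KRT5, a keratin of basal keratinocytes, was the most abundant at 123000 to 139000 normalized counts. The summed keratinocyte markers were 298500, 280500 and 296100 in NC mimic 1 to 3 and 295600, 307500 and 282200 in miR-21-3p mimic 1 to 3, so the groups overlapped. Of the 7, KRT6A rose (log2 fold change 0.34, limma adjusted p = 0.00203) and ITGB4 fell (-0.26, adjusted p = 0.0381). Of 4 endothelial markers 2 were analysed, with VWF the more abundant. Their sum was 1197, 1087 and 1119 against 877, 925 and 883. VWF had 720, 801 and 726 normalized counts in NC mimic and 712, 747 and 761 in miR-21-3p mimic. The groups of VWF overlapped (log2 fold change -0.016, limma adjusted p = 0.893). CDH5, the cadherin of endothelial junctions, fell (-1.30, adjusted p = 0.00258), with 477, 286 and 393 normalized counts in NC mimic and 165, 178 and 122 in miR-21-3p mimic. Of 6 fibroblast markers only COL1A1 was analysed, at 560, 390 and 478 against 372, 378 and 364 (adjusted p = 0.0635), and it was called lower in 2 of 16 alternatives, DESeq2 on all samples and limma without NC mimic 2. Of 5 melanocyte markers 2 were analysed, with MITF the more abundant, and their sum was 631, 630 and 640 against 586, 616 and 585. None of the markers analysed was at 0, the 5 leukocyte markers were not analysed here, and the part of these differences in the member results was not tested.

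Of 8 members tested, 2 passed the test between the groups: MARCKS fell and SPRY1 rose. A gene was called when its limma p, adjusted by Benjamini-Hochberg over 14782 genes, was under 0.05. Across all genes 1600 were called, or 10.8%, of which 909 (6.15%) were higher with the miR-21-3p mimic and 691 (4.67%) were lower. Of the members, 1 was called in each direction. The groups did not overlap for 3 of 8 members (MARCKS, SPRY1 and RHOB), and for 31.3% of all genes tested. The median log2 fold change was 0.042 over the members and 0.0045 over all genes.

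These counts moved with the setting. limma's variance prior followed mean expression; without that trend 48 genes and 0 members were called. With the trend, 4218 genes and 4 members were under an unadjusted p of 0.05. The tests on recovered reads called 1612 genes with DESeq2, among them 1 member, and 1662 genes with edgeR and RLE factors, among them 2 members. edgeR with TMM factors, planned for raw counts but run on recovered reads only after seeing the data, called 1649 genes and 2 members. Without NC mimic 2, 2963 genes and 3 members were called. Without NC mimic 1 or 3 the count of genes was 545 or 179, and without miR-21-3p mimic 1 or 3 it was 279 or 368, each with 1 member.

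**Figure D1:**
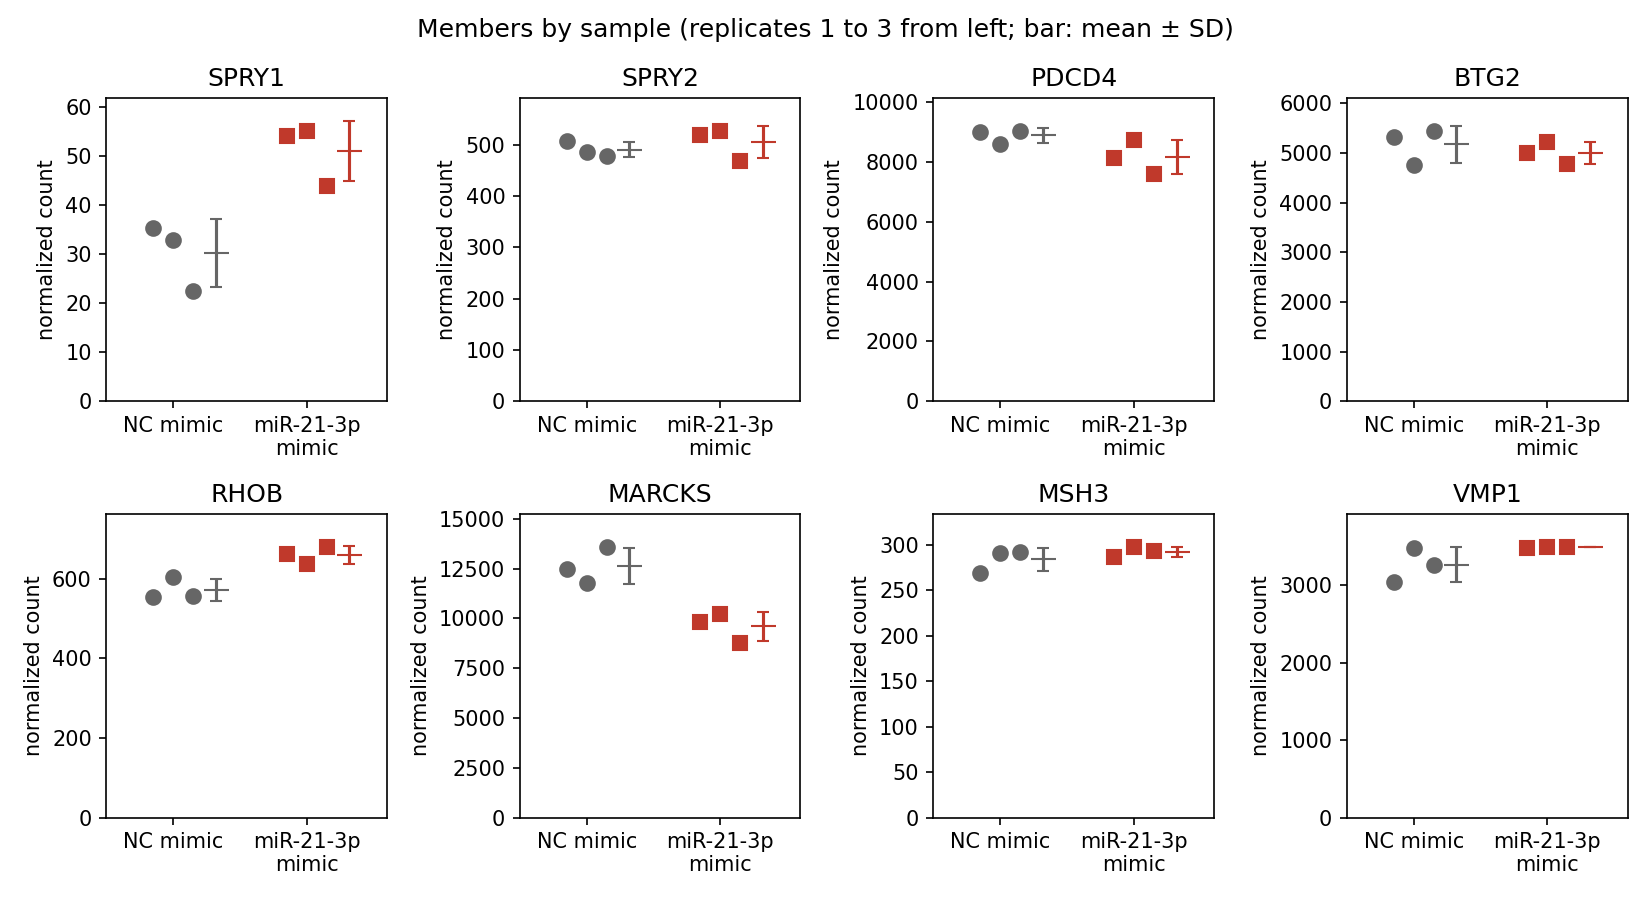
Normalized count (vertical axes, from 0) of each member in the 3 NC mimic samples (grey circles) and the 3 miR-21-3p mimic samples (red squares), with the mean and SD of each group. MARCKS lies between 8790 and 10200 in the miR-21-3p mimic samples and between 11800 and 13600 in the NC mimic samples, and SPRY1 and RHOB also show groups that do not overlap.

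MARCKS, a substrate of protein kinase C that binds actin and the inner face of the plasma membrane, was the member with the smallest adjusted p. MARCKS (ENSG00000155130 in the table) had 12500, 11800 and 13600 normalized counts in NC mimic 1 to 3, and 9840, 10200 and 8790 in miR-21-3p mimic 1 to 3. Every miR-21-3p mimic sample was below every NC mimic sample. The log2 fold change was -0.40 (95% interval -0.53 to -0.26, limma adjusted p = 0.00546), or 0.761 times the NC mimic level. The adjusted p was 0.000284 without NC mimic 2, 8.05e-07 with DESeq2 and 0.0849 without limma's trend, the only alternative of 16 in which MARCKS was not called. In bulk RNA, fewer cells of a type and less RNA per cell cannot be told apart. MARCKSL1, its relative, had 1730 to 1960 normalized counts in NC mimic and 1750 to 2190 in miR-21-3p mimic (log2 fold change 0.015, 95% interval -0.16 to 0.19, adjusted p = 0.922).

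SPRY1 and SPRY2 encode Sprouty proteins, feedback inhibitors of receptor tyrosine kinase signalling to ERK. SPRY1 (ENSG00000164056) had 35.4, 33 and 22.5 normalized counts in NC mimic 1 to 3, and 54.1, 55.3 and 44 in miR-21-3p mimic 1 to 3. Every miR-21-3p mimic sample was above every NC mimic sample, at a level that rests on few reads. The log2 fold change was 0.75 (95% interval 0.30 to 1.21, limma adjusted p = 0.0394), on the scale of log2(value + 1), or 1.69-fold. The call was lost in 7 of 16 alternatives. The adjusted p was 0.0791 with DESeq2 and 0.0961 without limma's trend. It was 0.0575 without NC mimic 1, 0.157 without NC mimic 3, and 0.139, 0.0916 and 0.077 without miR-21-3p mimic 1, 2 and 3. Without NC mimic 2 it was 0.0226.

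SPRY2 (ENSG00000136158) had 478 to 507 normalized counts in NC mimic and 469 to 528 in miR-21-3p mimic, so the groups overlapped. Its log2 fold change was 0.041 (95% interval -0.11 to 0.20, limma adjusted p = 0.744), and 0.036 without NC mimic 2 (adjusted p = 0.803). With each other sample left out in turn it was 0.0083 (without miR-21-3p mimic 2) to 0.094 (without miR-21-3p mimic 3), and SPRY2 was not called. SPRY1 and SPRY2 thus held the same 8-base match and had log2 fold changes of 0.75 and 0.041, whose difference was not tested.

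The list of Sprouty relatives and ERK feedback genes had 11 genes tested besides these members, and 6 rose and 0 fell. Of all genes tested, 6.15% rose and 4.67% fell. The median log2 fold change of the list was 0.281, against 0.0045 over all genes. The list was chosen with earlier results of these data known. SPRY4, another Sprouty, had 154, 172 and 152 normalized counts in NC mimic and 230, 237 and 232 in miR-21-3p mimic. The groups of SPRY4 did not overlap (log2 fold change 0.55, limma adjusted p = 0.00806). DUSP6, a phosphatase that acts on ERK, rose (0.42, adjusted p = 0.00487), as did PHLDA1 (0.34, adjusted p = 0.00762) and the ETS factor ETV4 (0.41, adjusted p = 0.0101). SPRED1 and IER3 were the other genes of the list that rose. SPRY3 was listed at 0 in all 6 samples. The list had 4, 8 and 1 genes called higher without NC mimic 1, 2 and 3, and 4, 7 and 5 without miR-21-3p mimic 1, 2 and 3. With DESeq2 it had 7, and without limma's trend only SPRY4.

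RHOB, a small GTPase of endosomes and actin organisation, did not pass the test although its groups did not overlap. RHOB (ENSG00000143878) had 554, 603 and 556 normalized counts in NC mimic 1 to 3, and 661, 637 and 680 in miR-21-3p mimic 1 to 3. All miR-21-3p mimic samples were above all NC mimic samples. The log2 fold change was 0.21 (95% interval 0.066 to 0.35, limma adjusted p = 0.0594), and without NC mimic 2 it was 0.25 (adjusted p = 0.0247), a call. With any other sample left out it was 0.19 to 0.23 (adjusted p = 0.0698 to 0.198). RHOA, the GTPase that drives stress fibres, had 6220 to 6440 normalized counts in NC mimic and 6730 to 7140 in miR-21-3p mimic (log2 fold change 0.12, adjusted p = 0.0878). RHOC had 2350 to 2570 and 2370 to 2590 (0.039, adjusted p = 0.665).

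**Figure D2:**
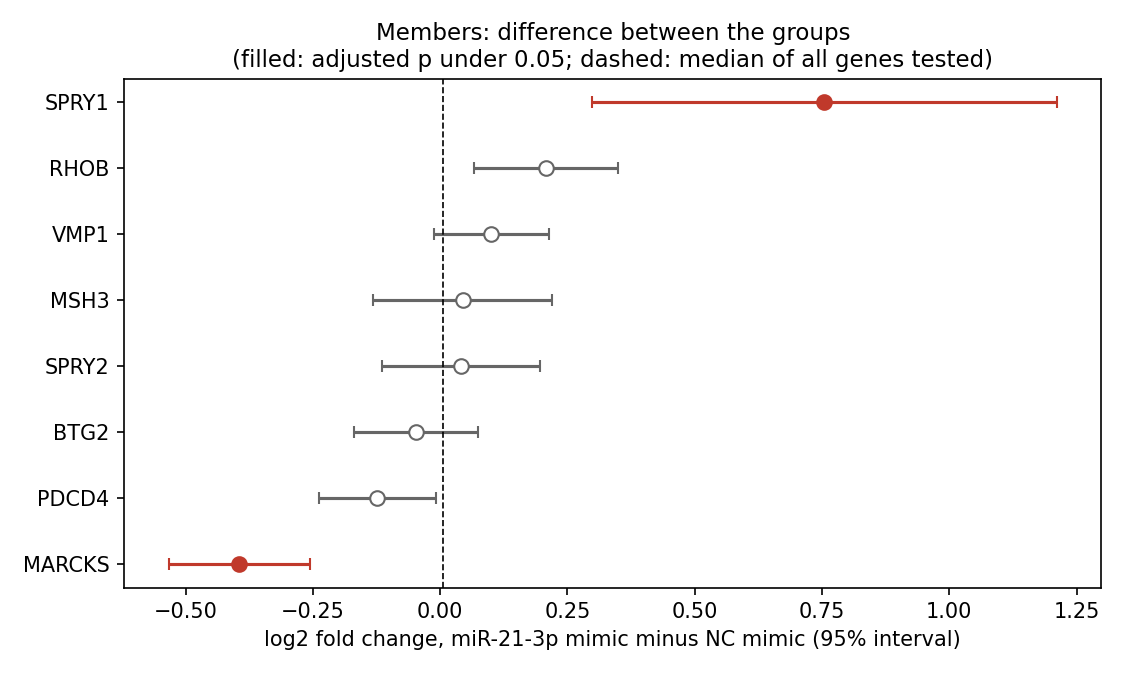
Log2 fold change of each member, miR-21-3p mimic minus NC mimic (horizontal axis), with its 95% interval from limma; filled points passed the test and the dashed line is the median of all genes tested. MARCKS (-0.40) and SPRY1 (0.75) lie at the ends, and the interval of SPRY1 is the widest.

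PDCD4 binds the helicase eIF4A and restrains translation, and is among the best known targets of miR-21-5p. PDCD4 (ENSG00000150593) had 8990, 8590 and 9040 normalized counts in NC mimic 1 to 3, and 8130, 8730 and 7600 in miR-21-3p mimic 1 to 3. The groups overlapped, since miR-21-3p mimic 2 lay above NC mimic 2. The log2 fold change was -0.12 (95% interval -0.24 to -0.0091, limma adjusted p = 0.145), and it was not called in any of 16 alternatives, where the adjusted p was 0.0521 to 0.436. Without NC mimic 2 the log2 fold change was -0.15 (adjusted p = 0.0801), and without miR-21-3p mimic 3 it was -0.075 (adjusted p = 0.436). Its 5 partners tested in the eIF4A list had a median of -0.068. limma called 0 of them, with 2 under an unadjusted p of 0.05, and DESeq2 and edgeR called 0, while without NC mimic 2 EIF4H was higher and BTRC, the ligase adaptor that marks PDCD4 for breakdown, was lower. EIF4A1 was not analysed here.

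BTG2, an antiproliferative protein that recruits the CCR4-NOT deadenylase, had 4750 to 5450 normalized counts in NC mimic and 4780 to 5210 in miR-21-3p mimic. The groups of BTG2 (ENSG00000159388) overlapped, and its log2 fold change was -0.048 (95% interval -0.17 to 0.075, limma adjusted p = 0.618). Without NC mimic 2 it was -0.11 (adjusted p = 0.156) and without NC mimic 3 it was -0.0082 (adjusted p = 0.956), the ends of the range with a sample left out, and BTG2 was not called. Among 7 relatives and CCR4-NOT subunits 1 rose and 0 fell, against 6.15% and 4.67% of all genes tested, with a list median of 0.012. That gene was BTG3, at 463, 496 and 474 normalized counts in NC mimic and 598, 634 and 556 in miR-21-3p mimic (log2 fold change 0.32, adjusted p = 0.0183), and it was not called without NC mimic 1 or 3 or miR-21-3p mimic 1. BTG1 had 2660 to 2990 and 2560 to 2930 (-0.063, adjusted p = 0.525). Without NC mimic 2, BTG3 was called higher and TOB2 lower, with a list median of -0.021.

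MSH3 recognises insertion and deletion loops in DNA mismatch repair. MSH3 (ENSG00000113318) had 269 to 292 normalized counts in NC mimic and 287 to 298 in miR-21-3p mimic, and the groups overlapped. Its log2 fold change was 0.044 (95% interval -0.13 to 0.22, limma adjusted p = 0.755), and 0.062 without NC mimic 2 (adjusted p = 0.693). It was 0.0056 without NC mimic 1 (adjusted p = 0.978). EXO1, the exonuclease of the pathway, rose by 0.34 (adjusted p = 0.0311) and PCNA, the sliding clamp of replication, by 0.29 (adjusted p = 0.0183). Without NC mimic 2 these were 0.42 (adjusted p = 0.00233) and 0.38 (adjusted p = 0.000221). Neither was called without NC mimic 1 or 3 or without miR-21-3p mimic 1 or 3, where the adjusted p was 0.111 to 0.124 for EXO1 and 0.0696 to 0.0928 for PCNA. MSH6, which recognises single mismatched bases, was not called (0.14, adjusted p = 0.115).

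VMP1, a membrane protein of the endoplasmic reticulum needed to form autophagosomes, spans the microRNA locus. In GENCODE v29 VMP1 lies at chr17:59707192-59842255 and MIR21 at chr17:59841266-59841337 (GRCh38, both plus strand). The hairpin fell in an exon of 1 of 17 annotated VMP1 transcripts, one with a retained intron, and began 173 bases past the end of the last protein-coding transcript. VMP1 (ENSG00000062716) had 3040, 3490 and 3270 normalized counts in NC mimic 1 to 3, and 3490, 3500 and 3500 in miR-21-3p mimic 1 to 3. The groups met at 3490, in NC mimic 2 and miR-21-3p mimic 1, and values were deposited to 3 significant digits. The log2 fold change was 0.10 (95% interval -0.013 to 0.21, limma adjusted p = 0.226), 0.15 without NC mimic 2 (adjusted p = 0.0515) and 0.050 without NC mimic 1 (adjusted p = 0.574). MIR21 was not analysed here.

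Of 5 VMP1 partners and neighbours limma called 0, with 1 under an unadjusted p of 0.05, and DESeq2 and edgeR called 0. PTRH2, the upstream neighbour on the other strand, which overlaps VMP1 by 435 bases, had 465 to 512 normalized counts in NC mimic and 535 to 607 in miR-21-3p mimic (log2 fold change 0.20, adjusted p = 0.1). TUBD1, a downstream neighbour, had 240 to 255 and 222 to 289 (0.087, adjusted p = 0.633). RPS6KB1, the kinase beyond it that also phosphorylates PDCD4, had 136 to 153 and 130 to 144 (-0.068, adjusted p = 0.719).

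Levels were compared between members per kilobase of annotated exons. The means over the 6 samples, in normalized counts per kb, were 2602 for MARCKS, 1872 for PDCD4, 1844 for BTG2, 489 for VMP1, 259 for RHOB, 164 for SPRY2, 61.2 for MSH3 and 10.3 for SPRY1. PDCD4 (1671 to 1988 over samples) and BTG2 (1723 to 1977) did not differ beyond their spread, and no other neighbours in this order overlapped. The genes most like PDCD4 over the 6 samples, by Pearson correlation of log2 CPM among 10133 genes, were ITPRIP (r = 0.999), SDC4 (0.992) and RP11-540O11.1 (0.99). Those most like VMP1 were SEMA3A (0.993), PHF6 (0.992) and INIP (0.992). These are the highest of 10133 correlations, each over 6 points that share their libraries and include both groups. The values are a description, and co-expression was not tested.

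**Figure D3:**
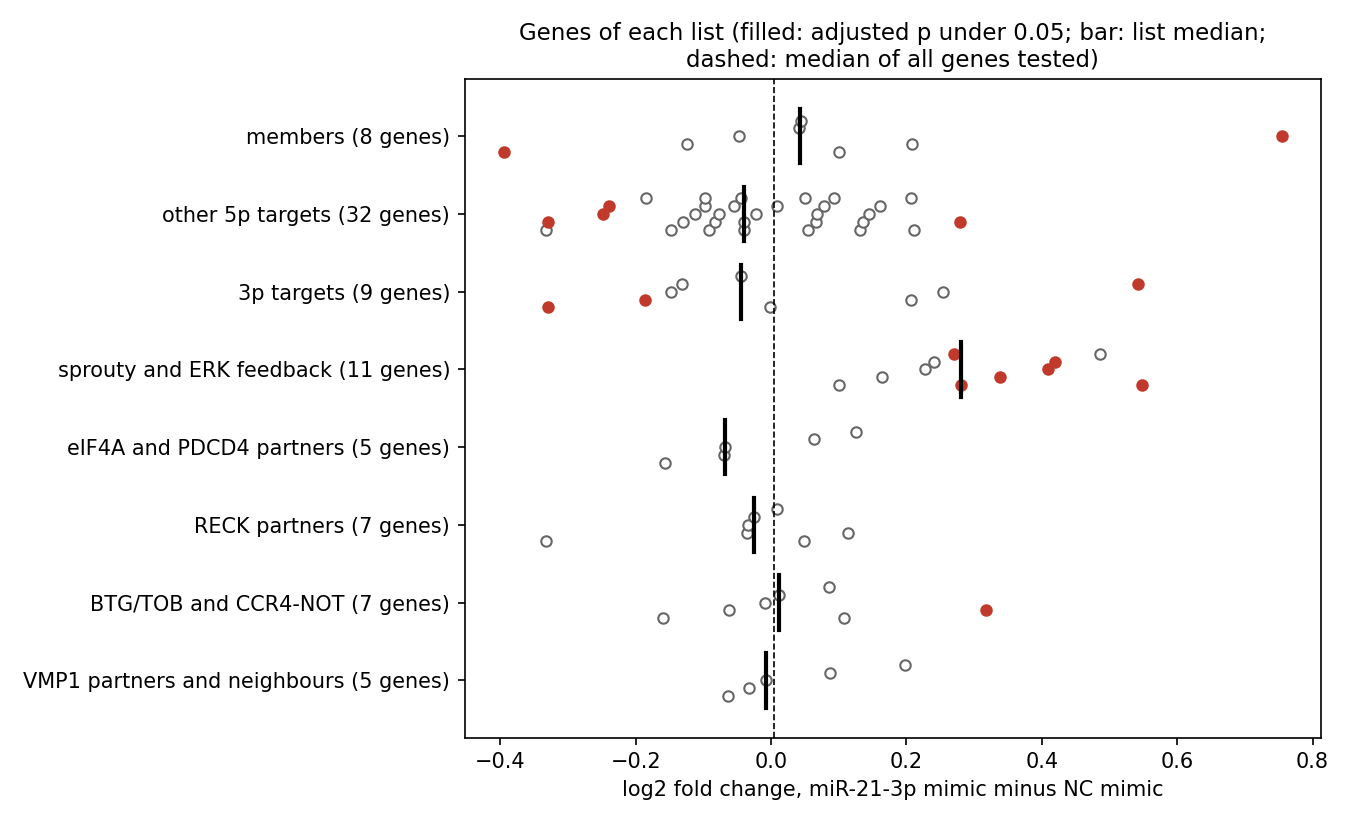
Log2 fold change (horizontal axis) of each gene tested in the member list and in the lists of other targets, partners and pathway genes; filled points passed the test, bars are list medians and the dashed line is the median of all genes tested. All genes tested in the Sprouty and ERK feedback list (median 0.281) lie to the right of that line.

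RECK was not analysed here, but 7 genes of its partner list were tested, among them metalloproteinases that RECK inhibits and tissue inhibitors. MMP9, also in that list, was not analysed here. limma called 0 of the 7 genes tested, with 1 under an unadjusted p of 0.05. DESeq2 called 0, while edgeR and limma with the replicate block called TIMP3 lower. TIMP3, an inhibitor of metalloproteinases and itself a miR-21-5p target, had 3020, 2170 and 2730 normalized counts in NC mimic and 2280, 2110 and 1860 in miR-21-3p mimic. The groups of TIMP3 overlapped through NC mimic 2 (log2 fold change -0.33, 95% interval -0.56 to -0.11, limma adjusted p = 0.0561), and it was lower without that library.

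Among 39 other published miR-21-5p targets 32 were tested, and 1 rose and 3 fell, with a median of -0.04. Over all genes tested 10.8% were called, with 6.15% higher and 4.67% lower, and the median was 0.0045. SERPINB5, the serpin maspin, rose (log2 fold change 0.28, limma adjusted p = 0.0143). SMAD7, an inhibitor of TGF-beta signalling, fell (-0.33, adjusted p = 0.00932), as did BMPR2, a receptor for bone morphogenetic proteins (-0.25, adjusted p = 0.0128), and TGFBI, a matrix protein induced by TGF-beta (-0.24, adjusted p = 0.0435). All 4 of these held the 7-base match, as did 22 of the 32. Of 9 published miR-21-3p targets tested, 1 rose and 2 fell, with a median of -0.044, beside the same shares over all genes. SMAD7 is in both target lists, and the others called were MAT2B, a regulatory subunit of methionine adenosyltransferase (-0.19, adjusted p = 0.0279), and L1CAM, an adhesion molecule, which rose (0.54, adjusted p = 0.0218). Without NC mimic 2 the 5p list had 4 genes higher and 6 lower and the 3p list 3 higher and 2 lower. Neither list had a call without NC mimic 3, without miR-21-3p mimic 1 or without limma's trend. Without NC mimic 1 each had 2 genes lower and 0 higher, and without miR-21-3p mimic 3 each had 1 lower and 0 higher.

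Across the partner, target and marker lists 19 genes were called besides the members, and 0 of them changed direction in any of 16 alternatives. Of these 19 calls, DESeq2 and edgeR lost 0. Without limma's trend 18 were lost, all but SPRY4. The number lost was 10 without NC mimic 1, 0 without NC mimic 2 and 16 without NC mimic 3, and 13, 0 and 10 without miR-21-3p mimic 1, 2 and 3. DUSP6, KRT6A and CDH5 kept their calls whichever sample was left out, and TGFBI also lost its call without the filter on low values.

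Over all genes with a 3′ UTR, the 1149 with the 7-base match to the miR-21-5p seed had a median log2 fold change of 0.003, and the 10410 without had 0.010, with UTRs of 3321 and 1223 bases at the median, a difference the comparison did not adjust for. Of those with a match 76 rose (6.61%) and 65 fell (5.66%), against 745 (7.16%) and 512 (4.92%) of those without. The 330 genes with the 8-base match had a median of -0.008, with 20 higher and 19 lower, and the 151 with 2 or more 7-base matches had -0.022, with 5 higher (3.31%) and 9 lower (5.96%). The genes without the 7-base match include those with TAAGCTA alone, BTG2 among them. The 681 genes with TAAGCTA outside an 8-base match had a median of 0.009, with 44 higher and 31 lower. Of the 4 members with a 7-base match SPRY1 rose, and PDCD4, SPRY2 and RHOB were not called. BTG2 was not called. MARCKS, with none of these matches, fell, and MSH3 and VMP1, also with none, were not called.

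**Figure D4:**
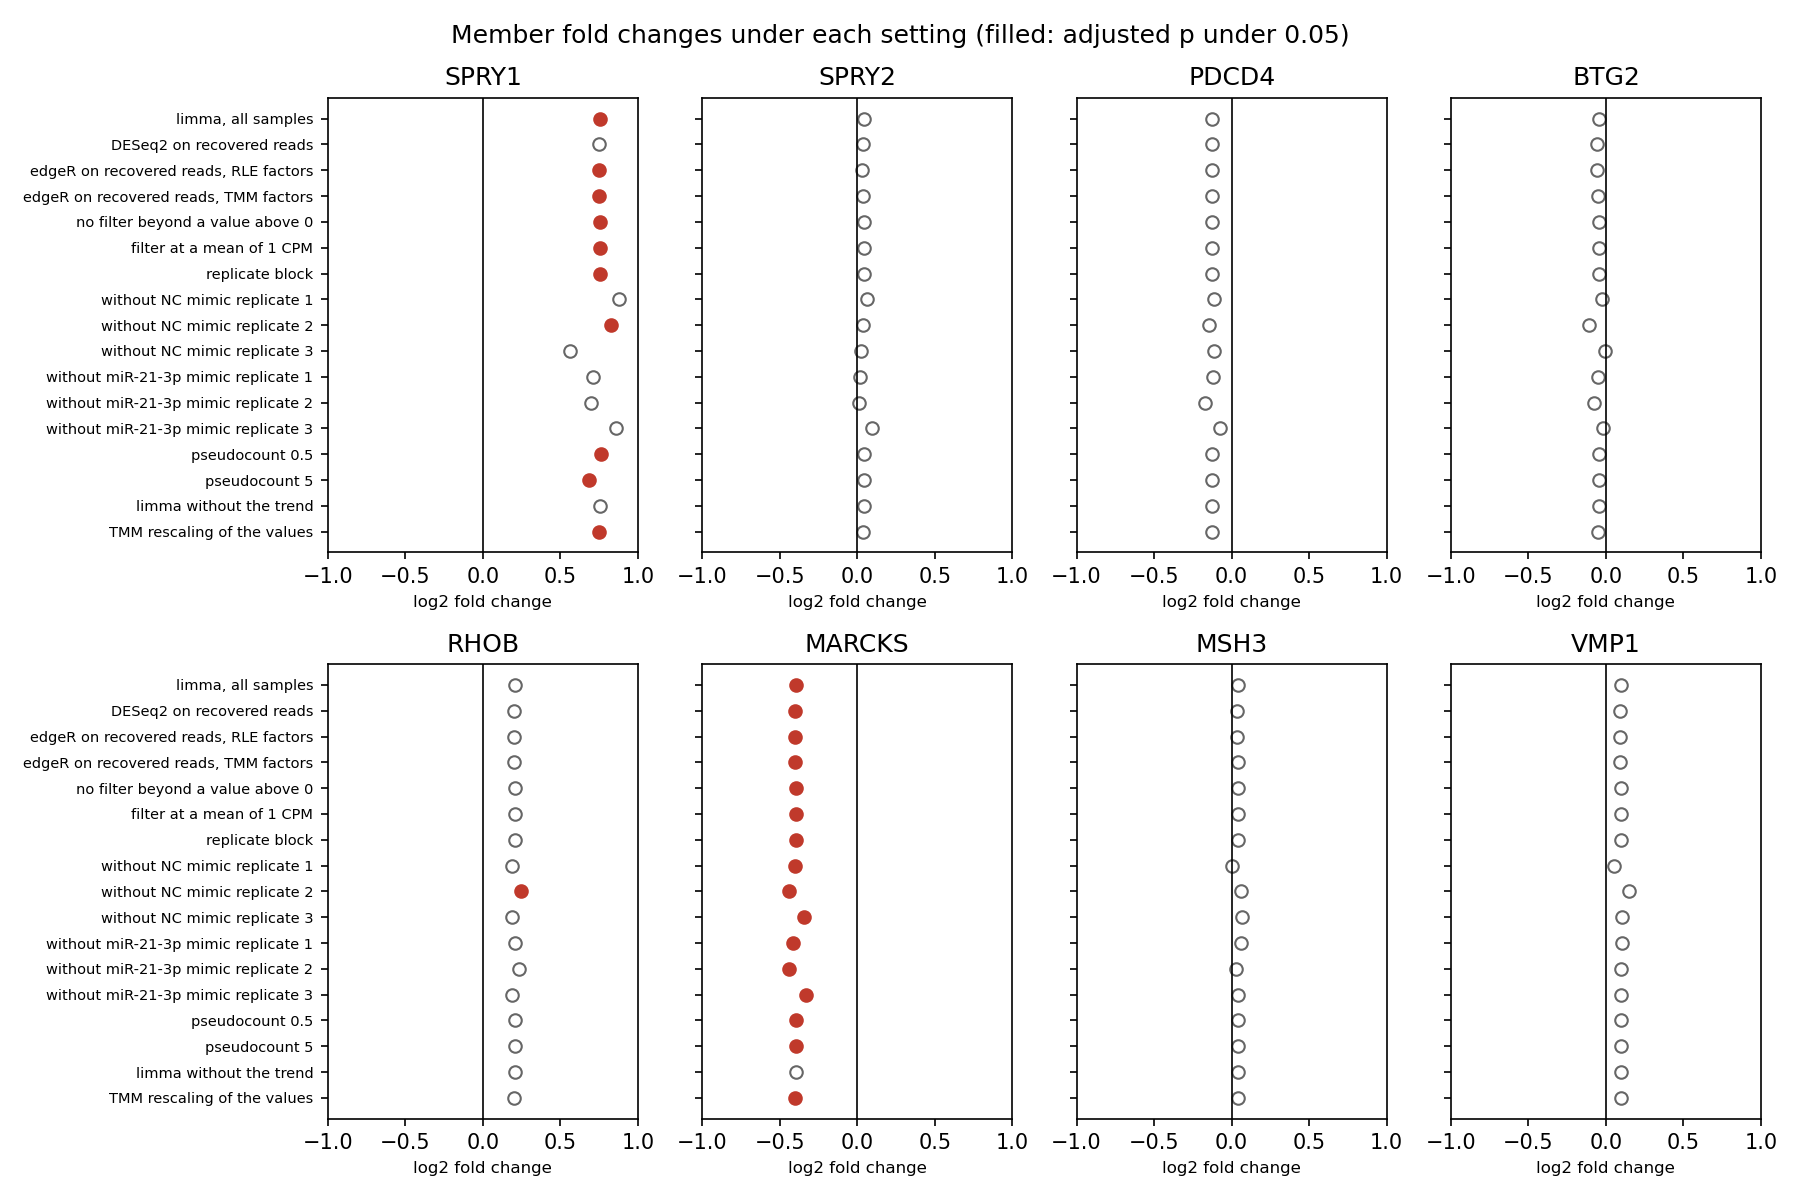
Log2 fold change of each member (horizontal axes) under limma on all samples and each of 16 alternatives (vertical axis); filled points passed the test. MARCKS stays filled except without the trend, SPRY1 is open in 7 alternatives, and RHOB is filled only without NC mimic replicate 2.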

How the data were processed

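Poly(A) RNA was measured in 6 HaCaT samples, 3 with NC mimic and 3 with miR-21-3p mimic, grouped by their labels. The deposited signal values were read counts per gene that the authors divided by a size factor for each sample and wrote to 3 significant digits. The submitters' processing notes name bcl2fastq 2.18.12, cutadapt 1.15, TopHat2 2.1.1, featureCounts of Subread 1.5.2 and DESeq2. The genome build and annotation are not given in the sources used here. The labels name poly(A) RNA and a stranded mRNA kit, whereas the paper's methods describe small RNA libraries. The labels are followed here. The series text calls the replicates biological, and the paper describes these data as triplicates per condition and says in general that experiments were repeated independently. Neither says whether these 3 samples of a group were separate cultures, so p-values measure the spread between these samples, which may be technical.

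The planned test was edgeR with TMM factors on raw counts, or limma on log2(value + 1) if the table held normalized values. For that reason limma 3.58.1 (R 4.3.3) was used. It was two-sided, with Benjamini-Hochberg adjustment over the 14782 genes with a mean of at least 10 normalized counts; 5278 genes of the table were at 0 in all samples. This filter and limma's trend of variance on mean expression were not part of the written plan. They were set once the unit of the table was known and before any fit was run, and the result without the trend is given beside the main counts. Fold changes are on the log2(value + 1) scale, which understates those of low genes, and intervals are 95% limma intervals.

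Low values were whole multiples of 1 step per sample (100% within 0.1 read), which gave the reads of low genes as whole numbers and those of higher genes only to the 3 digits deposited. The totals were about 24400000, 24500000 and 26200000 in NC mimic 1 to 3 and 24800000, 25000000 and 28000000 in miR-21-3p mimic 1 to 3. edgeR 4.0.16 and DESeq2 1.42.0 were run on these reads as alternatives. Other alternatives were RLE factors, filters on low values, a replicate block and leaving out each sample. The pseudocounts, limma without its trend, TMM rescaling and edgeR with TMM factors on recovered reads were chosen after seeing the data. Library pairs were compared over genes with 20 to 400 reads. The scripts were tested on simulated data.

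Of the genes tested, 14433 matched GENCODE v29 (GRCh38) by ID and 92 by symbol alone, MARCKS among them. The longest 3′ UTR of a protein-coding transcript in the basic set was searched, and exon lengths were the union of annotated exons, which may differ from those the authors counted. The miR-21-5p sequence came from RefSeq. The mature miR-21-3p sequence was not used here. Figures used Python 3.11.15 and matplotlib 3.10.9.

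The members and lists were chosen with earlier results of these data known. Named were all members, from each other list the genes called (up to the 4 with the smallest adjusted p), stated partners and neighbours, and the 3 genes most correlated with PDCD4 and with VMP1 among those of at least 10 CPM. SPRED1, IER3, COL1A1, EIF4H, BTRC and TOB2 were named after their values were seen. Some genes of this rule and the lists that rest on them are not reported here.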

Additional observations from a re-analysis of the deposited data

How the results depend on the processing

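The count of genes called was 1600 with limma on all samples and stayed within 1.5 times of it under the other tests, filters, pseudocounts and scalings, apart from limma without its trend, where it was 48. Leaving out each sample in turn gave 179 (without NC mimic 3) to 2963 (without NC mimic 2). The number of members called, 2, was 1 with DESeq2 and 0 without the trend, and 1 to 3 with a sample left out. No member changed sign under any of 16 alternatives. MARCKS was called in 15 of them and SPRY1 in 9. Over all 16 the log2 fold change was -0.44 to -0.33 for MARCKS and 0.56 to 0.88 for SPRY1. The cause of the lost calls was not tested. Samples with the same number did not deviate together (correlations of -0.00589, -0.201 and -0.168). With 3 samples in each group these correlations cannot show whether the samples were paired, and the labels do not say. The fit with the replicate block called 1202 genes and 2 members. SPRY1 had the lowest level of the members tested, with a mean of 30.3 normalized counts in NC mimic, and the intervals of the members not called leave room for small differences. With 3 samples in each group, a single library moved the count of genes by over 1.5 times in 5 of 6 cases.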
